A study of Mus musculus with 9 samples.

Results

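The 40 genes described here drive DNA replication and cell division: origin licensing and fork proteins, enzymes of deoxynucleotide synthesis, cyclins with their kinase Cdk1, and the mitotic machinery. They were taken by symbol from the authors' deposited table, which held all 40 among its 17511 genes, each at a mean normalized count of 50 or more. The RNA came from colon epithelial cells of mice, enriched with EDTA, in 2 libraries labelled DKO and 2 labelled Wt. Open chromatin was profiled by ATAC-seq, in which a transposase cuts accessible DNA, in a further 2 DKO and 2 Wt libraries, and ChIP-seq of the homeobox factor Cdx2 gave 1 library labelled Wt. By the strain labels, DKO mice were Cdx1-/-Cdx2f/f vill (+), Wt mice were Cdx1-/-Cdx2f/f vill (-), and all RNA and ATAC mice had tamoxifen for 6 days. Both groups thus carry the Cdx1-/- label and floxed Cdx2, so by label Wt is not an unmodified mouse. The ChIP sample was of the same strain as Wt and is tagged untreated. The labels do not spell out vill, and nothing in the labels ties replicates to separate animals, so a p-value here reflects the spread between samples that may be technical. The targeted genes' RNA went against these labels. Cdx1, labelled -/- in both groups, had a mean normalized count of 2595 and was lower in DKO (log2 -1.06, SE 0.23, adjusted p = 2.08e-05) by the authors' deposited table. Cdx2 was not called lower there, with a mean normalized count of 9263 (log2 -0.27, SE 0.21, adjusted p = 0.301) by the authors' deposited table. The labels do not say which bases either allele removes, so whether the counted RNA lies outside them was not tested, and DKO and Wt stand throughout for libraries labelled so.

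As background, the colon epithelium renews itself from dividing cells of the lower crypt, while the differentiated cells above them have left the cycle. Before S phase the Mcm2 to Mcm7 helicase is loaded on origins by Cdc6 and Cdt1, and Cdc45 and the GINS proteins switch it on. Cyclin A and cyclin B with Cdk1 then lead the cell into mitosis, where Aurora and Polo kinases and the Bub1 checkpoint proteins watch over the spindle. The APC/C ubiquitin ligase, activated by Cdc20, ends mitosis by marking cyclin B for destruction. Genes of the G1/S step are known for E2F sites in their promoters, and genes of G2 and M for the cell cycle homology region (CHR) and CCAAT boxes bound by DREAM, B-Myb and FoxM1 complexes and by NF-Y.

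The proximal promoters of members that passed the RNA threshold are shown as the sequences next to the gene start. Open chromatin is compared below in a wider window, of 1000 bases on each side of the start. Each is the stretch of 250 bases before the gene start from RefSeq (GRCm38.p6), and capitals mark matches on either strand to E2F words (TTCCCGC or TTCGCGC or TTGCCGC or TTGGCGC), CHR words (TTTGAA or TTCGAA) and the CCAAT box. Of the 9 members past the threshold, these 6 had an entry in the sequence table used here.
Ccnb1 (chr13:100786487-100786736, minus strand): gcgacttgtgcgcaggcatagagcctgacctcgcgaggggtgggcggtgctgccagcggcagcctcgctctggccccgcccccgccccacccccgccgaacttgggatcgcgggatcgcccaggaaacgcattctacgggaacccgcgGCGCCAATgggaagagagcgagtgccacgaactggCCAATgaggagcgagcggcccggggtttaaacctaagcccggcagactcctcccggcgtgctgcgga
Nusap1 (chr2:119618048-119618297, plus strand): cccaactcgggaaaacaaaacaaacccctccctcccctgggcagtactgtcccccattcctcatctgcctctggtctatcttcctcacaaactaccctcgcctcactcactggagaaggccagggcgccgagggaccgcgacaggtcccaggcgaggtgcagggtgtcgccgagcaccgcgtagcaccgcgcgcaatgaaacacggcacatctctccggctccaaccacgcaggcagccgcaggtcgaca
Kif11 (chr19:37376132-37376381, plus strand): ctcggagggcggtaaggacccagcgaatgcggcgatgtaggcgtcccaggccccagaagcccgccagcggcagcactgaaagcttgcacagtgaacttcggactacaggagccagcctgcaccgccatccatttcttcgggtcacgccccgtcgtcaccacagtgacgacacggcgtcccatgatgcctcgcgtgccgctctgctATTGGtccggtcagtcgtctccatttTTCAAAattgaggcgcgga
Bub1 (chr2:127831860-127832109, minus strand): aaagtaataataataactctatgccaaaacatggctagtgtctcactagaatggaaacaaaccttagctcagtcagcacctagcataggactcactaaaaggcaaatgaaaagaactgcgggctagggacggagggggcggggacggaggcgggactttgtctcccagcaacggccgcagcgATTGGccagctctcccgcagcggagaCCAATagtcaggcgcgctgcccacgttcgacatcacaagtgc
Rrm2 (chr12:24708004-24708253, plus strand): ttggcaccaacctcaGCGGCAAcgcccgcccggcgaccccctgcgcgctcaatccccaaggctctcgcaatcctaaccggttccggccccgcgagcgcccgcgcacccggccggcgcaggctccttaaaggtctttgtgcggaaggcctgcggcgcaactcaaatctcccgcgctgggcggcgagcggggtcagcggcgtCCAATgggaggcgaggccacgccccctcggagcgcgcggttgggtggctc
Top2a (chr11:99024190-99024439, minus strand): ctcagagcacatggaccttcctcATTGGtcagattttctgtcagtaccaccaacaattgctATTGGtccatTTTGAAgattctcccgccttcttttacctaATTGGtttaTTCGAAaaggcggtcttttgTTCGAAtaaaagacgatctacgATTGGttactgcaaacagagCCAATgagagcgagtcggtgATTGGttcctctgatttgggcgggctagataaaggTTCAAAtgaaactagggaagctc
Top2a carried 6 CCAAT boxes and 4 CHR words in this stretch, and its promoter is the only one of these 6 with a Cdx word (TTTATG or TTTATT), which it held at 2 places. In Ccnb1 the E2F word at position -102 from the start overlaps a CCAAT box at -99. Kif11 has its CHR word at -19, whereas that of Bub1 lies at 15, past the start, and is not printed. Nusap1 had no match to any of these words.

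Among all members with an entry (31 genes, 32 promoters, as Mcm7 has 2), the CHR and E2F words divided by phase of the cycle. In the entries of 300 bases, which run to 50 bases past the start, CHR words were found in 14 of 18 promoters of S, G2 and M genes and in 3 of 14 of replication, nucleotide and G1 genes, against 14.6% of the 15376 promoters of tested genes. E2F words were found in 3 of 18 promoters of S, G2 and M genes and in 8 of 14 of the replication, nucleotide and G1 class, against 15.1% over all. The E2F word was held by Mcm3, Mcm5, Mcm6, Mcm7, Cdc6, Cdt1 and Rrm2 in the earlier class. CCAAT boxes were in 26 of the 32 promoters, against 37.3%, and Cdx words in 8 of 32, against 17.8%. These 2 kinds of word were found in both classes. CCAAT boxes were in 16 of 18 promoters of S, G2 and M genes and 10 of 14 of the earlier class, and Cdx words in 5 of 18 and 3 of 14. Nusap1, Birc5, Ccne1 and Tyms held no E2F, CHR or CCAAT word in this window. A word is a description of the letters and shows no binding, and absence from the window says nothing of the factor.

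**Figure D1:**
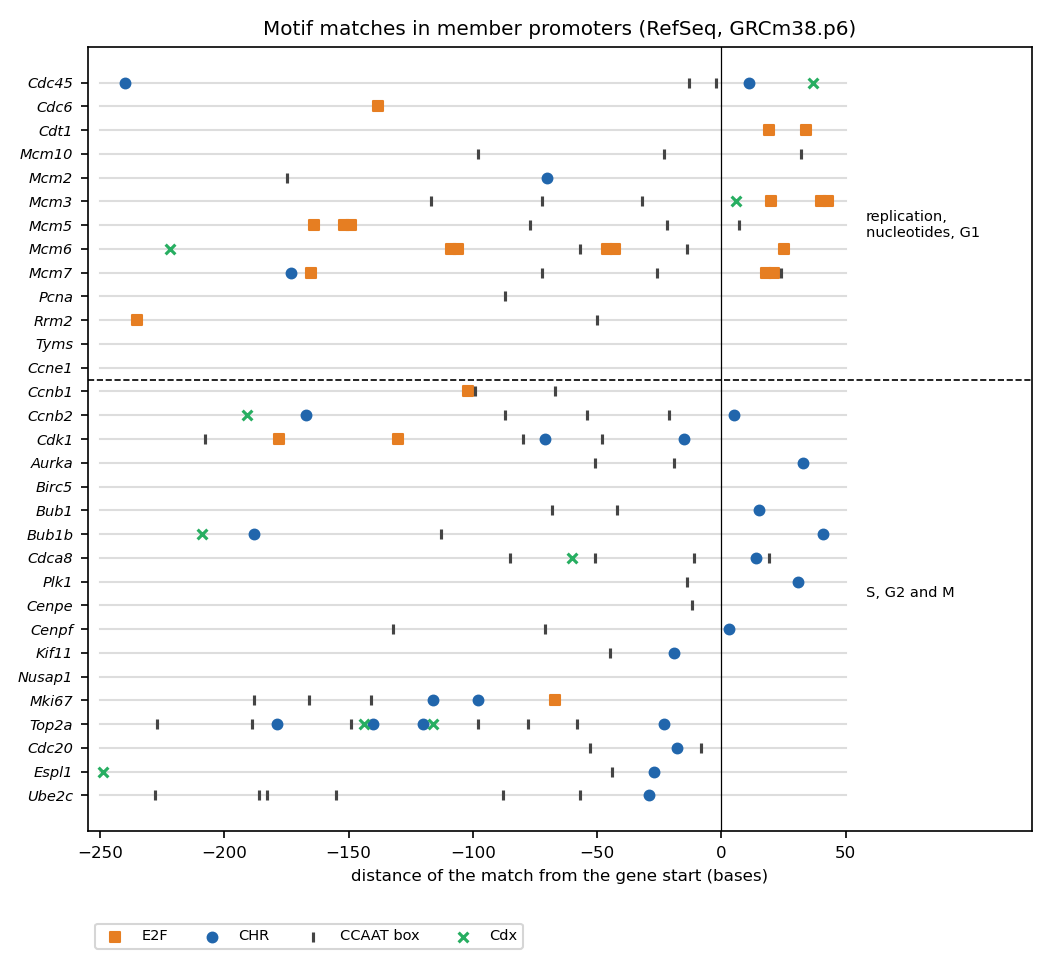
Matches to E2F, CHR, CCAAT and Cdx words in the promoters of the 31 members with an entry, by distance from the gene start in bases (negative: before it), for Mcm7 in 1 of its 2 entries. E2F marks gather above the dashed line, in replication, nucleotide and G1 genes (8 of 14 promoters), and CHR marks below it, in genes of S, G2 and M (14 of 18).

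In the RNA, 8 members rose and 1 fell in DKO at an adjusted p under 0.05 by the authors' deposited table, and all changes were modest. The 8 were Nusap1, Ccnb1, Kif11, Bub1, Rrm2, Ccna2, Gins2 and Kif20a, and the lower one was Top2a. That is 22.5% of the members called, against a background of 36.8% of all genes by the authors' deposited table. By direction, 20.0% of members were higher, against 18.5% of all genes, and 2.50% were lower, against 18.3%, by the authors' deposited table. The share higher is thus near the background and carries no result about the members. The calls are split by role below only to describe them, and no test was made between roles. Among the 12049 genes whose mean normalized count was 50 or more, with p readjusted, 45.7% were called, 25.5% higher and 20.2% lower, by the authors' deposited table, while the members kept the same 8 and 1 calls.

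The members' changes were also small in size. Their log2 fold changes by the authors' deposited table ran between -0.93 (Cdc6) and 1.17 (Nusap1), with a median of 0.35, against a median of -0.02 over all genes and 0.07 over genes whose mean normalized count was at least 50. A log2 fold change above 0 was given for 28 members (70.0%) and one below 0 for 12 by the authors' deposited table, against 49.1% above 0 over all genes and 53.7% over those with a mean of at least 50. Only 2 of 40 members (5.00%) reached a change of 2-fold or more by the authors' deposited table, against 27.5% of all genes and 26.7% of those with a mean of at least 50. The 2, Nusap1 and Ccnb1, also passed the threshold, against 24.2% of all genes that did both by the authors' deposited table. The median SE on the log2 scale was 0.32 for the members, against 0.28 for the genes with a mean of at least 50, by the authors' deposited table. For 21 of the 40 members, the estimate plus and minus 2 SE lay inside 2-fold in either direction by the authors' deposited table. The deposited fold changes appear to be shrunken toward 0, which understates large and noisy changes. Gene values for single libraries are not given here, because the transcript files used here carry no gene names. In bulk RNA of this kind, fewer cells of a type and less RNA per cell cannot be told apart.

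**Figure D2:**
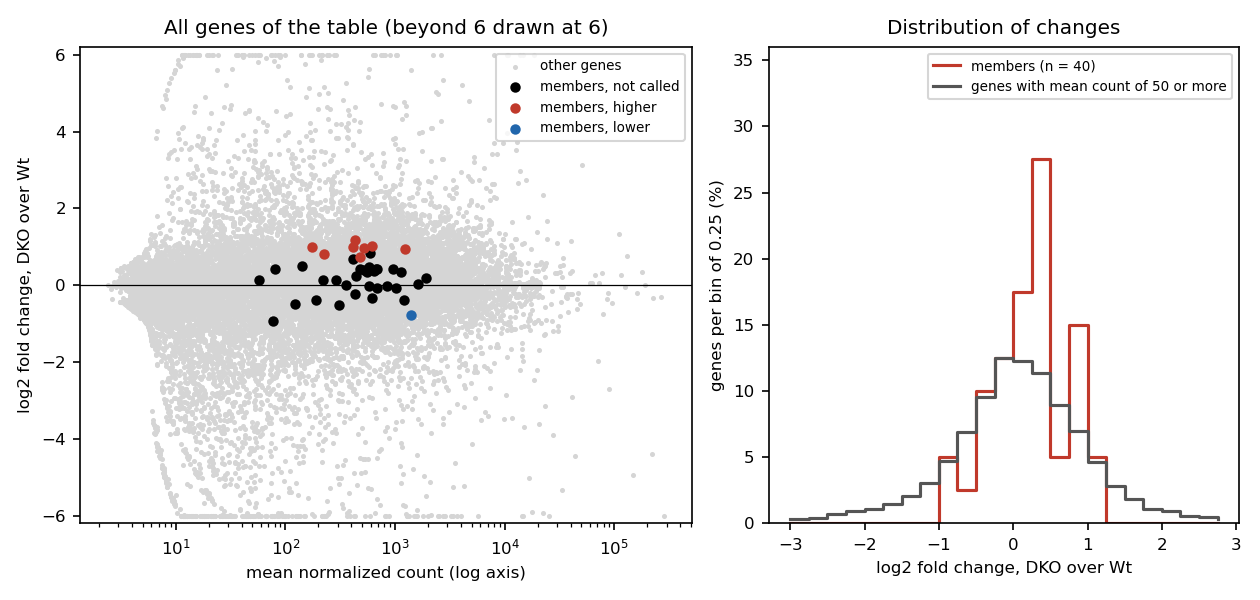
Left, log2 fold change (DKO over Wt) against the mean normalized count (log axis) for all genes of the authors' deposited table, with members in colour if higher or lower and in black if not called. Right, share of genes per bin of 0.25 in log2 fold change: members sit between -0.93 and 1.17, whereas genes whose mean count is at least 50 spread beyond 2-fold in 26.7% of cases.

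Replication genes showed 1 call, higher, among 13 members (7.69%), against 18.5% of all genes called higher. Gins2, a subunit of the GINS complex of the active helicase, rose 1.77-fold in DKO (log2 0.82, SE 0.38, adjusted p = 0.0489) by the authors' deposited table, which is just inside the threshold. Mcm2, a helicase subunit, stood at 0.83 (SE 0.42, adjusted p = 0.0727) by the authors' deposited table, with the same size of change but just outside it. Cdc6, the loading factor, had the lowest value of all members, -0.93 (SE 0.49, adjusted p = 0.0713) by the authors' deposited table, also outside, and its mean normalized count there was 76.7. The 6 subunits of the Mcm2 to Mcm7 ring did not share a sign: by the authors' deposited table Mcm6 was at 0.35 (SE 0.24), Mcm5 at -0.03 (SE 0.31), Mcm7 at -0.06 (SE 0.25), Mcm4 at -0.24 (SE 0.33) and Mcm3 at -0.35 (SE 0.29). Pcna, the sliding clamp and the most abundantly counted member at a mean of 1917 normalized counts, was at 0.18 (SE 0.24, adjusted p = 0.603) by the authors' deposited table. The licensing factor Cdt1 (0.42, SE 0.24), the GINS subunit Gins1 (0.43, SE 0.44), the initiation factor Mcm10 (0.14, SE 0.31) and the helicase activator Cdc45 (-0.48, SE 0.42) also missed the threshold by the authors' deposited table.

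Of the nucleotide enzymes, Rrm2, the regulated subunit of ribonucleotide reductase, rose 1.95-fold in DKO (log2 0.96, SE 0.41, adjusted p = 0.0288) by the authors' deposited table. Thymidylate synthase, Tyms, was at -0.02 (SE 0.31, adjusted p = 0.975) by the authors' deposited table, where a processed pseudogene, Tyms-ps, was listed at a mean of only 6.30 normalized counts. None of the 3 G1 cyclins passed. Ccnd1, the cyclin that growth signals induce, was at -0.39 (SE 0.30), and the E cyclins of the G1/S step were at 0.50 (SE 0.47) for Ccne1 and 0.14 (SE 0.50) for Ccne2 by the authors' deposited table. Ccne2 had the lowest mean of any member, 57.0 normalized counts by the authors' deposited table, and the widest SE.

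Cyclins of S, G2 and M were all above 0. Ccnb1, the main mitotic cyclin (chromosome 13, 100778739 to 100786486, GRCm38), rose 2.02-fold in DKO (log2 1.01, SE 0.37, adjusted p = 0.0102) by the authors' deposited table. A pseudogene named Ccnb1-ps exists in the annotation, so some reads could be shared. The same holds for Ccnb2 (Ccnb2-ps) and for Pcna (Pcna-ps1 and Pcna-ps2). Ccna2, the cyclin of S phase and G2, rose 1.93-fold (log2 0.95, SE 0.33, adjusted p = 0.00768) by the authors' deposited table, the smallest adjusted p among members. The annotation places Exosc9 on overlapping bases of Ccna2, and whether counting used strand is not given in the sources used here. Their partners did not pass, with Ccnb2 at 0.42 (SE 0.24, adjusted p = 0.148) and Cdk1 at 0.38 (SE 0.30, adjusted p = 0.306) by the authors' deposited table.

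All 7 mitotic kinase, passenger and checkpoint genes had a log2 fold change above 0, against 49.1% of all genes. Of these 7, 1 passed (14.3%, against 18.5% of all genes called higher). Bub1, a spindle checkpoint kinase (chromosome 2, 127800197 to 127831859), rose 1.98-fold (log2 0.99, SE 0.45, adjusted p = 0.0367) by the authors' deposited table. Its relative Bub1b, which encodes BubR1, was at 0.23 (SE 0.28, adjusted p = 0.542) by the authors' deposited table. The chromosomal passenger genes followed in order of value, with the kinase Aurkb at 0.68 (SE 0.36), borealin, Cdca8, at 0.46 (SE 0.26) and survivin, Birc5, at 0.35 (SE 0.27) by the authors' deposited table. Their adjusted p values were 0.0997, 0.143 and 0.309 by the authors' deposited table, so none passed. Plk1, the Polo kinase of mitosis, was at 0.42 (SE 0.24, adjusted p = 0.151) by the authors' deposited table. Aurka, the centrosomal Aurora kinase, was at 0.01 (SE 0.33, adjusted p = 0.993) by the authors' deposited table.

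Spindle genes held 3 of the 8 higher calls, among 6 members. Over all genes 18.5% were called higher, and 25.5% over those whose mean normalized count was 50 or more, by the authors' deposited table. With so few members, and no test between roles, the 3 calls are given as a description only. Nusap1, which bundles spindle microtubules (chromosome 2, 119618298 to 119650165), had the largest change of all members, 2.25-fold (log2 1.17, SE 0.46, adjusted p = 0.0143) by the authors' deposited table. Kif11, the kinesin that pushes spindle poles apart, rose 1.98-fold (log2 0.99, SE 0.40, adjusted p = 0.0228) by the authors' deposited table. Kif20a, a kinesin of the central spindle, rose 1.65-fold (log2 0.72, SE 0.29, adjusted p = 0.0257) by the authors' deposited table. Nusap1 shares bases with Oip5 and n-R5s204 in the annotation, and Kif20a with Brd8 and Cdc23. Among the other called members, Gins2 shares bases with Gse1, Kif11 with Gm46649 and Gm8663, and Top2a with LOC115487886. Some members that were not called share bases with other genes too. The spindle assembly factor Tpx2 (0.41, SE 0.34), the kinetochore motor Cenpe (0.13, SE 0.42) and the large kinetochore protein Cenpf (-0.51, SE 0.38) did not pass by the authors' deposited table.

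Of the chromosome structure genes, both in wide use as proliferation markers, 1 passed. Top2a, the topoisomerase that untangles replicated chromosomes (chromosome 11, 98992947 to 99024199), fell in DKO (log2 -0.76, SE 0.26, adjusted p = 0.00897), a level 1.70-fold higher in Wt, by the authors' deposited table. Mki67, which coats mitotic chromosomes and encodes the Ki-67 antigen, was at 0.04 (SE 0.25, adjusted p = 0.930) at a mean of 1610 normalized counts by the authors' deposited table. The anaphase genes gave no call, with the APC/C activator Cdc20 at 0.43 (SE 0.25), its ubiquitin carrier Ube2c at -0.08 (SE 0.30) and separase, Espl1, at -0.40 (SE 0.40) by the authors' deposited table.

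**Figure D3:**
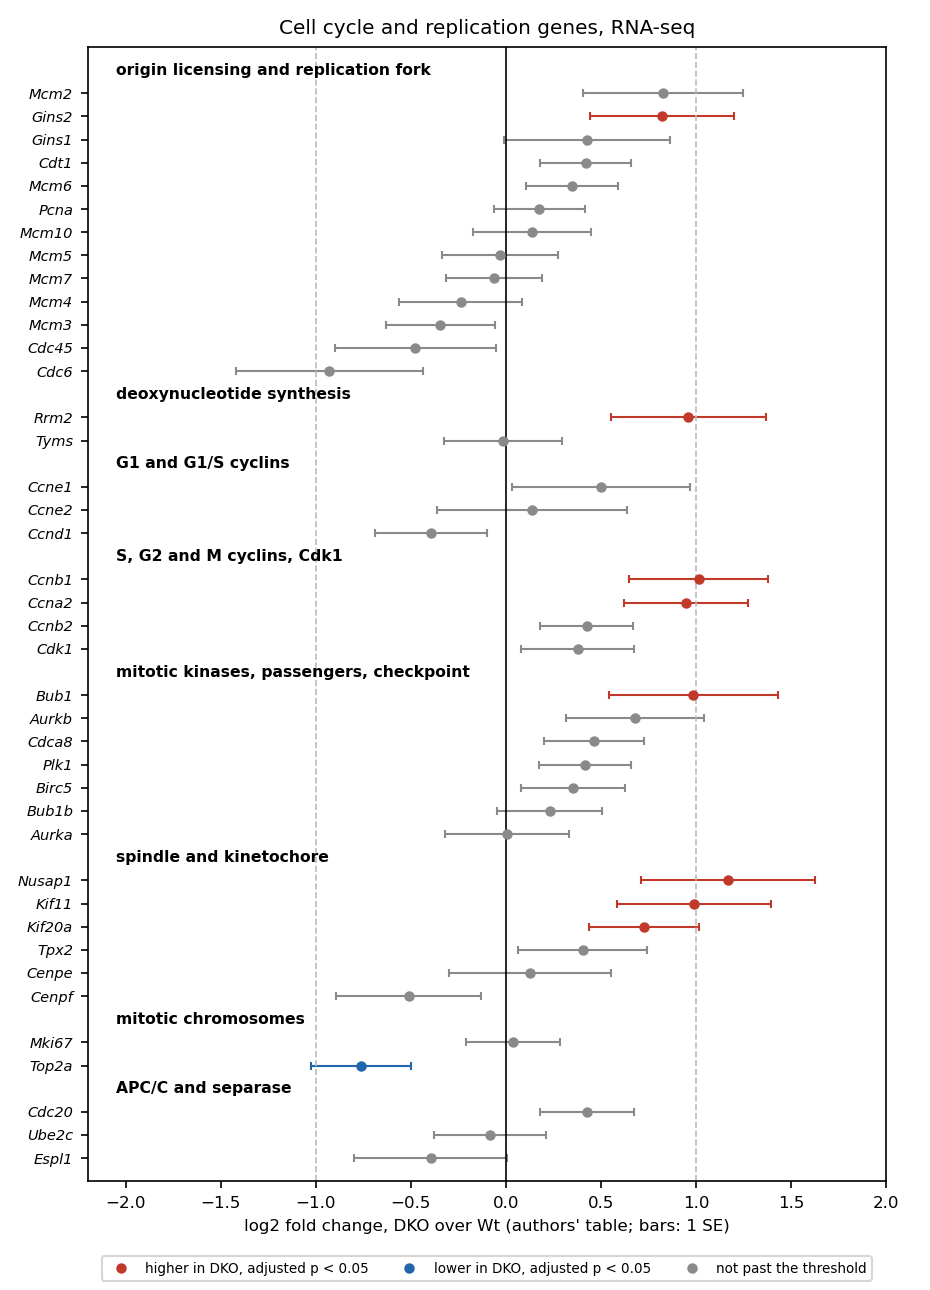
For each of the 40 members, the log2 fold change (DKO over Wt) from the authors' deposited table, grouped by role, with bars of 1 SE; dashed lines mark a change of 2-fold. The 8 members higher in DKO lie between 0.72 and 1.17, Top2a is the only lower one at -0.76, and the 31 others lie between -0.93 and 0.83.

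Other cell cycle genes and targets of p53 were taken from lists of 151 genes that hold no member, of which 149 were measured. The 16 p53 targets, described below, gave 9 of the higher calls. In DKO 41 of these were higher (27.5%) and 13 lower (8.72%) by the authors' deposited table, with a median log2 fold change of 0.41. Among all genes the shares were 18.5% and 18.3%, and over those whose mean normalized count was 50 or more 25.5% and 20.2%, by the authors' deposited table, so the share higher lay near the second background. Genes of the E2F, Rb, DREAM and FoxM1 regulators stood at 6 higher (33.3%) and 3 lower (16.7%) of 18. Their binding at the members' promoters was not measured. By the authors' deposited table Foxm1, the activator of G2 and M genes, was at 1.04 (SE 0.30), Lin9 of the MuvB core at 1.03 (SE 0.39) and the E2F partner Tfdp1 at 1.09 (SE 0.29). E2f7, a repressor of the E2F family, rose furthest, 6.03-fold (log2 2.59, SE 0.65, adjusted p = 5.15e-05), at a mean of 87.4 normalized counts by the authors' deposited table. E2f3 (-0.80, SE 0.37), E2f5 (-0.87, SE 0.29) and Lin37 (-0.92, SE 0.33) fell by the authors' deposited table.

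Inhibitors of cyclin-dependent kinases gave 2 lower (33.3%) and 1 higher (16.7%) of 6 by the authors' deposited table. Over all genes the shares were 18.3% lower and 18.5% higher. Cdkn2b, which encodes p15, fell (log2 -1.67, SE 0.34, adjusted p = 2.64e-06), as did Cdkn1c, which encodes p57 (-1.30, SE 0.34), while Cdkn1b, which encodes p27, rose (0.62, SE 0.21) by the authors' deposited table. Cdkn1a, which encodes p21, was at 0.27 (SE 0.26, adjusted p = 0.413) by the authors' deposited table, a gene named here after its value was seen. Of the 15 other cyclin and Cdk genes 6 were higher and 1 lower, with Wee1, the kinase that holds Cdk1 inactive, at 1.53 (SE 0.29) and its relative Pkmyt1 at -1.05 (SE 0.32) by the authors' deposited table. Cdc25a, the phosphatase that opposes them, was at 0.71 (SE 0.21), Cdk2 at 0.64 (SE 0.25) and Ccnh, of the Cdk-activating kinase, at 0.71 (SE 0.29) by the authors' deposited table, each past the threshold.

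Other replication genes, 41 in all, had 8 higher (19.5%) and 5 lower (12.2%) calls by the authors' deposited table, the higher share being near that of all genes. The highest were Orc2, of the origin recognition complex, at 2.16 (SE 0.37) and Dbf4, the activator of the Cdc7 kinase, at 1.86 (SE 0.30) by the authors' deposited table. Polymerase and primase genes were called in both directions: by the authors' deposited table Pold3 was at 1.03 (SE 0.29) and the primase subunit Prim2 at 0.84 (SE 0.33), against Pold1 at -1.27 (SE 0.28), Pole2 at -1.14 (SE 0.56) and Pola2 at -0.82 (SE 0.29). Rfc2, of the clamp loader, was at -1.33 (SE 0.29) by the authors' deposited table. Other mitotic genes stood at 9 higher (20.9%, also near the background) and 1 lower (2.33%) of 43, with the centrosomal kinase Nek2 at 1.36 (SE 0.29), the condensin subunit Smc2 at 1.30 (SE 0.43), the cytokinesis factor Racgap1 at 1.15 (SE 0.37) and the cohesin protector Sgo2a at 1.13 (SE 0.52) by the authors' deposited table. The lower one was Ncapd2, another condensin subunit, at -1.11 (SE 0.26) by the authors' deposited table. Among checkpoint genes Atr, a kinase that senses stalled replication forks, was higher at 1.01 (SE 0.34, adjusted p = 0.00543) by the authors' deposited table.

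Targets of p53, the factor that halts the cycle on damage, gave 9 higher (56.2%) and 1 lower (6.25%) of 16 by the authors' deposited table. Over all genes the shares were 18.5% and 18.3%, and over those with a mean of at least 50 they were 25.5% and 20.2%. Pmaip1, a promoter of cell death also called Noxa, rose 19.5-fold (log2 4.29, SE 0.28, adjusted p = 7.30e-52), Gdf15 6.42-fold, Trp53inp1 3.57-fold and Mdm2, the ligase that destroys p53, 2.63-fold by the authors' deposited table. Sesn2 was the lower one (SE 0.27 on the log2 scale, adjusted p = 0.000767) by the authors' deposited table. Several genes of this list respond to other stress signals as well, and p53 activity itself was not tested. Cdkn1a is also on this list and did not pass.

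**Figure D4:**
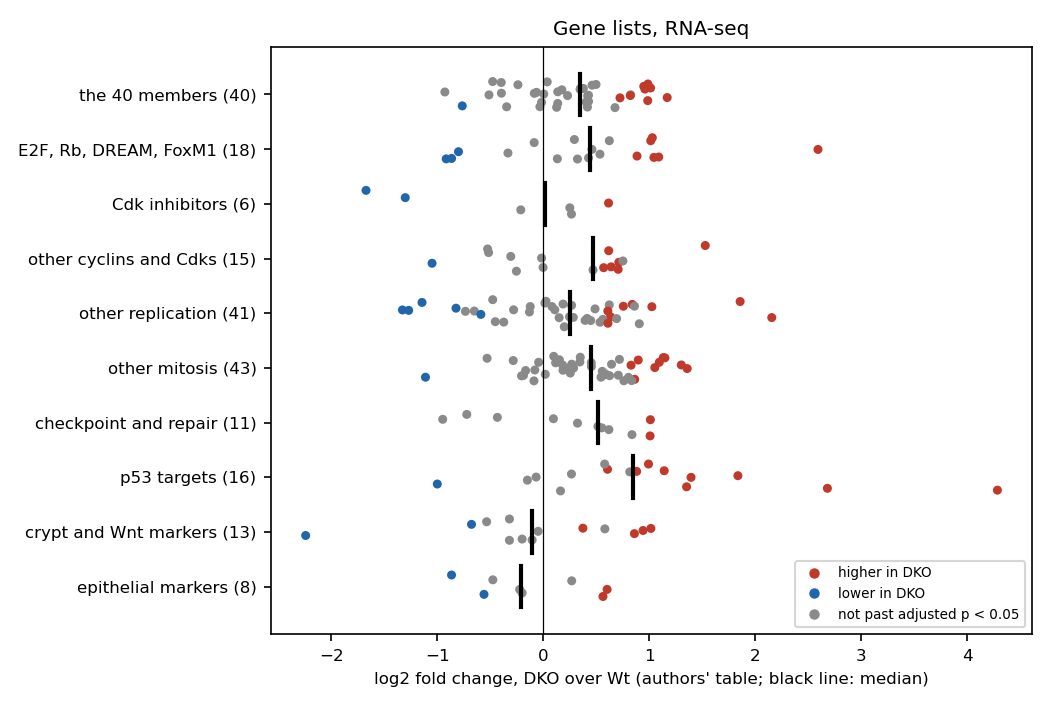
The log2 fold change (DKO over Wt) from the authors' deposited table for the members and for 9 other gene lists, 1 point per gene, coloured by call, with the median as a black line. The members' median is 0.35, that of other mitotic genes 0.45, and p53 targets reach 4.29.

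Markers of other cells moved with the groups. Over all genes 18.5% were called higher and 18.3% lower by the authors' deposited table. All 14 markers of stroma, muscle and endothelium were lower by the authors' deposited table (median log2 -5.13, range -8.18 to -1.49), led by Tagln, Acta2 and Myh11. Of 9 markers of B and plasma cells 6 were lower (median -2.10), T and NK markers higher in 2 of 10 (median 0.17), and macrophage and neutrophil markers higher in 4 and lower in 2 of 10 (median 0.45) by the authors' deposited table. Of the last, the neutrophil genes S100a9 (log2 12.79, SE 3.86) and S100a8 (10.99, SE 2.13) rose, and the macrophage gene C1qa (-2.40, SE 0.33) fell, by the authors' deposited table. The macrophage markers did not move together. Lyz2 (-2.13, SE 0.27) fell too by the authors' deposited table. Csf1r (0.56, SE 0.31), Cd68 (0.34, SE 0.48), Adgre1 (-0.35, SE 0.65) and C1qb (-0.76, SE 0.35) were not called there. The plasma cell genes Jchain (-3.61, SE 0.27), Igha (-3.46, SE 0.34) and Igkc (-3.42, SE 0.34) fell, and the T and NK genes Cd3d (1.52, SE 0.91) and Gzma (1.44, SE 0.59) rose, by the authors' deposited table. Crypt and Wnt markers were higher in 4 and lower in 2 of 13 (median -0.10), with the stem cell factor Ascl2 at -2.24 (SE 0.50) and the Wnt feedback ligases Znrf3 at 1.02 (SE 0.37) and Rnf43 at 0.94 (SE 0.26) by the authors' deposited table. Epithelial markers were higher in 2 and lower in 2 of 8 (median -0.21), and Epcam, a surface marker of all epithelial cells, had a mean of 39413 normalized counts and a log2 fold change of -0.22 (SE 0.19) by the authors' deposited table. The part of any of these cells in the members' values was not tested, and summed marker levels per library are not given, as the table holds none. RNA libraries held between 20069555 and 21197446 estimated reads in DKO and between 16403301 and 25494309 in Wt.

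Fewer members had an ATAC peak at their start in the DKO lists than in the Wt lists, as was the case over all genes. Among the 31 members with a RefSeq start, an ATAC peak within 1000 bases was listed for 5 in DKO replicate 1 and 11 in DKO replicate 2, against 30 in each of Wt replicates 1 and 2. Over all 12122 genes with a start the shares were 28.8% and 44.5% in the DKO lists and 81.0% and 83.0% in the Wt lists. For the members they were 16.1% and 35.5% in the DKO lists and 96.8% in each Wt list. A peak in both Wt lists and neither DKO list was found at 18 members (58.1%), against 32.7% of all genes. Of those open in both Wt lists, this made 18 of 30 members (60.0%) and 3962 of 9646 genes (41.1%). At 0 members was there a peak in both DKO lists and neither Wt list, a pattern found at 0.214% of all genes. Taking both ends of the gene span as starts, a setting chosen after seeing the data, covered all 40 members. The DKO lists then gave 10 and 16 members, against 27.9% and 39.5% of all genes with a span. Each Wt list gave 39 members, against 71.5% and 73.6%. This setting changes the members covered as well as the starts, since 9 members have no RefSeq start. Of these 9, Aurkb, Ccna2, Ccne2 and Mcm4 had a peak in both DKO lists. Gins2 had one in DKO replicate 2 only, and Ccnd1, Gins1, Kif20a and Tpx2 had one in neither. The lower share of members in the DKO lists thus depends on which members are covered. With 2 libraries against 2, an exact permutation test cannot give a p below 0.33, so no test is given.

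The peak lists differed in ways that reach every promoter. The DKO lists held 40101 and 23961 peaks, the Wt lists 48163 and 53943. Peaks with a -log10 q of at least 5 made up 15.7% and 17.4% of the DKO lists and 48.5% and 51.6% of the Wt lists. The part of this difference in the members' counts was not tested. At the members' starts, the fold enrichment over background, a value of the authors' peak caller that ranks peaks within 1 list, had medians, over members with a peak, of 4.04 and 4.22 in the 2 DKO lists and of 6.96 and 7.51 in the 2 Wt lists. The medians over all genes with a peak at the start were 3.94 and 4.09 in the DKO lists and 7.19 and 7.28 in the Wt lists, so within each list the members' median lay close to that of all genes.

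The 6 members past the RNA threshold with a start differed in their DKO peaks. Nusap1 was open in all 4 lists, with a fold enrichment of 5.06 and 4.87 in DKO and of 9.39 and 10.2 in Wt. Ccnb1 had a peak of 3.85 in DKO replicate 1 and none in DKO replicate 2, against 10.6 and 9.32 in Wt. Kif11 had none in DKO replicate 1 and one of 3.90 in DKO replicate 2, against 10.6 and 10.7 in Wt. Bub1, higher in the DKO RNA, had no peak in either DKO list, against 9.17 and 10.3 in Wt. Top2a, lower in the DKO RNA, likewise had none in DKO, against 5.82 and 6.61 in Wt. Rrm2 had no peak in any of the 4 lists within 1000 bases of its start, although its RNA was counted at a mean of 518 by the authors' deposited table. A peak in both Wt lists and neither DKO list was thus found at 2 of these 6, Bub1 and Top2a, and at 16 of the 25 members that did not pass, and no test was made of this difference.

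Peaks in all 4 lists were found at 4 of the 31 members with a start (12.9%), against 23.5% of all genes: Nusap1, Cenpf, Cdk1 and Ccne1. With both ends of the gene span as starts, it was 9 of 40 members, against 20.9% of all genes with a span. Cenpf had the highest values of any member in Wt, 4.19 and 4.49 in the DKO libraries and 11.4 and 12.1 in the Wt ones. Cdk1 stood at 4.04 and 4.49 in the DKO libraries and 6.64 and 8.64 in the Wt ones. Ccne1 stood at 3.36 and 3.98 in the DKO libraries and 7.72 and 7.89 in the Wt ones. Such values rank peaks within 1 list, and no test was made between lists. Of the 10 replication genes with a start, Mcm6 (4.44) and Pcna (4.60) had a DKO peak, in replicate 2 only, against 11.3 and 9.61 for Mcm6 and 10.0 and 11.2 for Pcna in Wt. Mcm2, Mcm3, Mcm5, Mcm7, Mcm10, Cdc6, Cdc45 and Cdt1 had none in DKO and one in each Wt list, from 3.94 at Mcm2 to 10.2 at Mcm3.

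**Figure D5:**
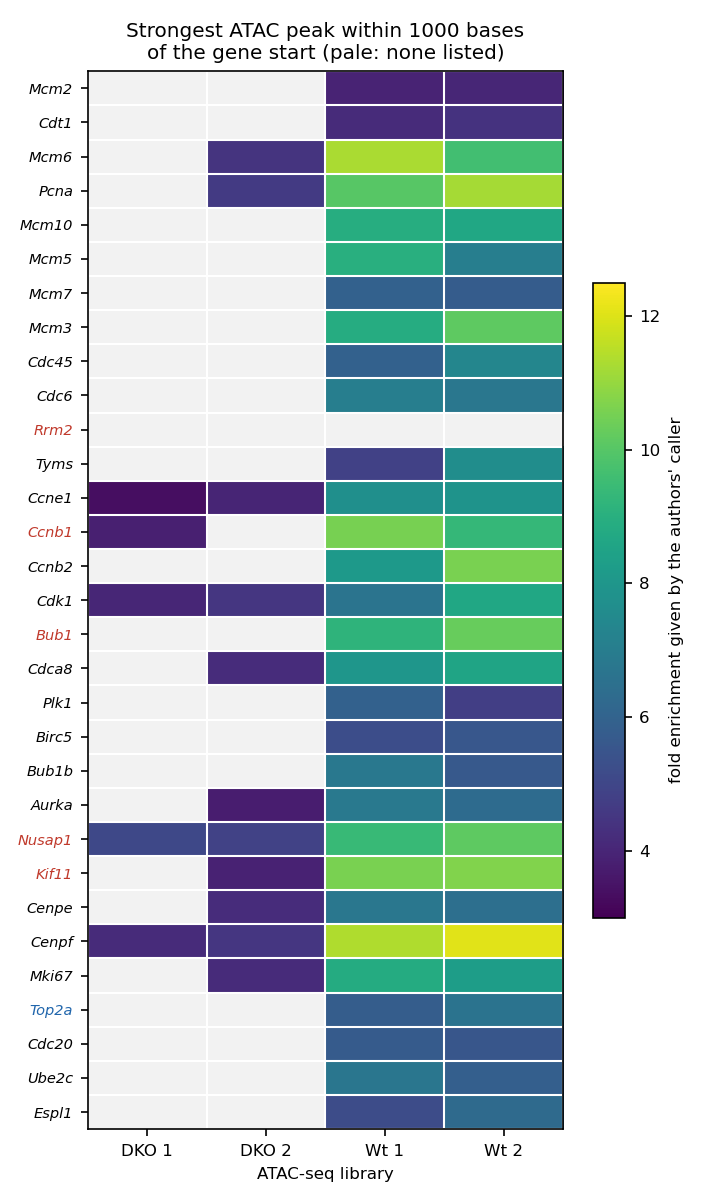
Fold enrichment of the strongest ATAC peak within 1000 bases of the start of the 31 members with a RefSeq start, in the 2 DKO and the 2 Wt libraries; gene names are red if higher and blue if lower in the DKO RNA. Pale cells, where no peak is listed, fill most of the DKO columns (5 and 11 members with a peak), while the Wt columns are filled for 30 members each.

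Cdx2 binding was rare at these genes and near its rate over all genes. Of the 31 members with a start, 4 (12.9%) had a Cdx2 ChIP peak within 10 kb, against 10.4% of all genes. The median distance to the nearest Cdx2 peak was 71.1 kb for the members and 111 kb over all genes. These 4 were Aurka, Cenpf, Cdc6 and Plk1, and none of them passed the RNA threshold. Cenpf had its peak 1.90 kb upstream (chr1:189689990-189690236), Cdc6 2.84 kb upstream (chr11:98905090-98905311) and Plk1 6.76 kb upstream (chr7:122152446-122152680), on the coordinates of mm10. The peaks near Cdc6 and Plk1 overlapped an ATAC peak in both Wt lists and in neither DKO list. At gene starts this pattern was found for 32.7% of all genes. Its share over all Cdx2 peaks is not given here, so neither these peaks nor that of Aurka below show anything particular to the members. The one near Cenpf overlapped no ATAC peak in any of the 4 lists.

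Aurka was the only member with a Cdx2 peak within 1 kb of its start (3.23%, against 3.65% of all genes), the peak lying over the start itself, and its promoter is shown for that reason, chosen after its values were seen. The peak (chr2:172370457-172370688) covered 168 bases of the RefSeq entry, and by fold enrichment (4.45) it ranked 4441 of 5179 Cdx2 peaks. The stretch of 250 bases before the start is printed from RefSeq (GRCm38.p6), with capitals as above, and it holds 2 CCAAT boxes and no Cdx word.
Aurka (chr2:172370571-172370820, minus strand): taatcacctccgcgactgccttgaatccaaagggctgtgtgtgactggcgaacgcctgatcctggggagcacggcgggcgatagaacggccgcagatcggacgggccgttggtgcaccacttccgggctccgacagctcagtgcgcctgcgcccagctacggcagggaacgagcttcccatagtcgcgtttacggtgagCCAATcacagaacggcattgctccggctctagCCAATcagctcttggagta
Within 1000 bases of the start of Aurka there was an ATAC peak of 3.75 in DKO replicate 2 and none in DKO replicate 1, against 6.85 and 6.33 in Wt. The Cdx2 peak itself overlapped an ATAC peak in both Wt lists and in neither DKO list, so the DKO replicate 2 peak lies beside it. Cstf1, a gene on overlapping bases, shares this region, so these peaks cannot be assigned to Aurka alone.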

How the data were processed

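RNA-seq, ATAC-seq and Cdx2 ChIP-seq libraries were grouped by their titles. Salmon 1.3.0, DESeq2, MACS2, Bowtie2, BWA and fastp, and the builds GRCm38 and mm10, come from the submitters' processing notes, and the sources used here give no settings. Salmon's estimated counts per transcript, deposited by the authors, served only for depth, since nothing used here pairs transcripts with genes. The planned edgeR test per library was therefore not run. The authors' deposited table gives a mean normalized count (a signal scaled between libraries by the authors), a log2 fold change of DKO over Wt made by the authors, and p-values of the authors, per the file headers. The adjusted p matches a Benjamini-Hochberg adjustment of p, and log2 fold over SE returned p for 1751 of 17511 genes within 0.01 in log10. Peak files hold a fold enrichment ratio and a -log10 q per peak, written by the authors' caller for each library.

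Members were matched by symbol. Starts came from RefSeq promoter entries (GRCm38.p6), which matched 12122 genes (69.2%) and 31 members; Aurkb, Ccna2, Ccnd1, Ccne2, Gins1, Gins2, Kif20a, Mcm4 and Tpx2 had none. A peak was counted at a start if at least 1 base lay within 1000 bases. The adjustment, overlap and word search were tested on simulated data. Named genes were all members, up to 4 highest and 4 lowest called genes of each pathway list, and up to 3 called markers by size. Some further genes, such as other macrophage markers, were named after their values were seen. One gene of the pathway lists is not reported here. Members and lists were chosen with earlier results of these data known. Python 3.11.15, numpy 2.4.6, pandas 2.3.3 and scipy 1.17.1 were used.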

Additional observations from a re-analysis of the deposited data

How the results depend on the processing

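No paired analysis was possible because the gene values come from the authors' deposited table, which holds no library values; the fits per library, the DESeq2 and unfiltered fits and the left-out RNA libraries were not run for the same reason. Readjusting p over genes whose mean normalized count was 50 or more left each of the 40 members on its side of the threshold, with 57 pathway genes called in place of 54. At an adjusted p under 0.01 the authors' deposited table kept 2 of the 9 member calls, Ccna2 as the 1 higher and Top2a as the 1 lower, and 31 of 54 pathway calls, 22 of them higher. Asking for a change of 2-fold as well left 2 members, both higher, and 0 lower. The 4 members with an ATAC peak in all 4 lists became 1 in the window of 250 bases before to 50 after the start, and 0 with peaks of -log10 q of at least 5. With both ends of the gene span as starts, an alternative chosen after seeing the data, it was 9 of 40, against 20.9% of all genes with a span. Leaving out 1 ATAC library each gave between 4 and 11, the latter without DKO replicate 1. The 18 members with a peak in both Wt and neither DKO list became 17 to 24 under the other settings and 18 to 25 without 1 library. Cdx2 peaks were near 11 members at 50 kb, against 30.8% of all genes, and near 1 at 1 kb, against 3.65%. The SE of single members, between 0.24 and 0.50 on the log2 scale, limits what the authors' deposited table can resolve.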
